A study of Aspergillus nidulans with 32 samples.

Results

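The response of Aspergillus nidulans mycelium to 1 h in used medium was compared between cultures that had starved before and cultures that had not, gene by gene, as a difference of 2 differences. The comparison used 16 of the 32 RNA sequencing libraries of the study, chosen by their labelled treatment, and these came from 8 of its 16 cultures. All cultures grew at 37 °C with shaking in 200 mL of minimal medium with 50 mM glucose and 10 mM nitrate. Naive refed cultures grew for 24 h and then spent 2 h in fresh minimal medium. Pre-starved refed cultures grew for 20 h, spent 4 h in the salts of this medium with glucose and nitrate left out, and then had the same 2 h in fresh medium. Naive and pre-starved used-medium cultures had the respective treatment and were then moved for 1 h into medium whose carbon or nitrogen source had been used up by 48 h of earlier growth. Each of the 4 groups held 2 cultures, A and B, called biological replicates in the labels, and each culture gave 2 technical libraries, which were summed. The labels name both a wild type, FGSC#4, and a strain with aflR behind the alcA promoter, RKIS42.17, without saying which one gave a sample, and the composition of the used medium is not stated further. Pre-starved cultures also had 20 h instead of 24 h of growth and 1 more change of medium, so an effect of the earlier starvation cannot be told apart from these.

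A filamentous fungus that runs out of glucose and nitrate shuts down the enzymes of nitrate assimilation and of fast growth, turns to recycling and to the breakdown of amino acids, and may begin to form asexual spores, the conidia. A history of starvation can show itself in an interaction in different ways: the cultures may start from different levels after refeeding, or they may arrive at different levels in used medium. The interaction given here is the log2 change on the move into used medium in pre-starved cultures minus that in naive cultures. It equals the used-medium level difference (pre-starved minus naive) minus the refed level difference (pre-starved minus naive), and both parts were therefore tested for every gene. "Higher" means a positive interaction, that is, a response more upward, or less downward, in pre-starved cultures.

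Of 10022 genes tested with edgeR's quasi-likelihood test, 2743 (27.4%) were called in the interaction at a Benjamini-Hochberg adjusted p under 0.05, 1514 higher (15.1%) and 1229 lower (12.3%). The median size of a called interaction was 1.01 on the log2 scale, against 0.48 over all tested genes, and 405 called genes reached 2. Leaving out each of the 8 cultures in turn gave 2006 to 2518 called genes, and 1546 were called in all 8 of these fits and in that with all cultures. The split of the calls depended on scaling. With library totals in place of TMM scaling, the median interaction of all genes moved by 0.23 log2, and 2517 genes were called higher and 833 lower, so that 75.1% of the calls were higher instead of 55.2%. Interactions below are relative to the TMM scaling, and levels are CPM, TMM-scaled counts per 1e6 counts of a culture.

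With all cultures, more of the interactions lay with the level before the move than with the level reached. The order of these classes turned in the fit without naive refed B. That fit leaves 1 culture in its group, so it cannot tell dependence on this culture from the loss of a replicate. The refed level difference was called for 42.7% of all tested genes (21.4% higher and 21.3% lower in pre-starved cultures), and the used-medium level difference for 39.7% (21.6% and 18.1%). In 1098 called genes (40.0%) only the refed level difference was called, on the side that gives the interaction, with 599 higher and 499 lower. In 839 called genes (30.6%) only the used-medium level difference was called, with 475 higher and 364 lower. Without naive refed B there were 789 refed level genes and 822 used-medium level genes, and without pre-starved used-medium B the used-medium level class fell to 531. A further 336 genes crossed: pre-starved cultures were above naive ones in one state and below them in the other, with both differences called. In 237 genes a difference in the same direction narrowed in used medium, in 155 it widened, and in 78 neither difference was called. Crossing genes became fewer without any 1 culture. Narrowed genes fell most without any 1 of the 4 used-medium cultures, and widened genes without any 1 of the 4 refed cultures. Called level differences of a state also became fewer when any 1 of its 4 cultures was left out. Each such fit leaves 1 culture in a group, so these falls do not show dependence on single cultures. A difference that was not called may still exist, so the 95% interval of the uncalled difference was also asked to lie within 1 log2 of 0. Under this stricter form 955 refed level genes and 735 used-medium level genes remained. The refed difference was the larger of the 2 in size in 1558 of the 2743 called genes (56.8%).

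**Figure D1:**
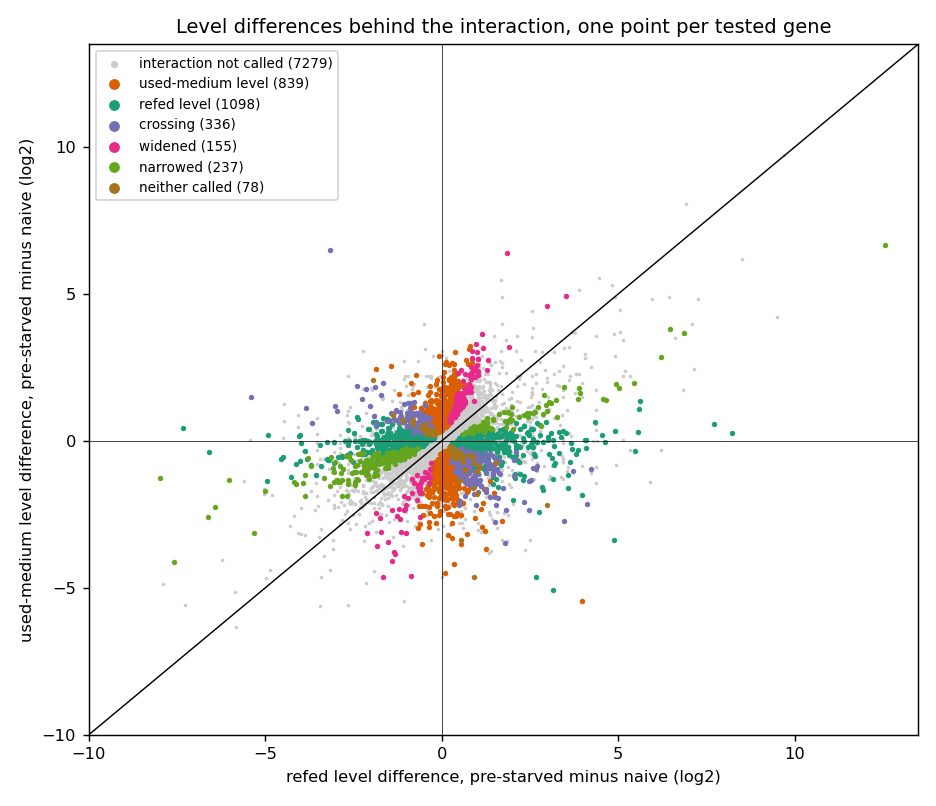
Refed level difference (x axis) against used-medium level difference (y axis), both pre-starved minus naive on the log2 scale, with 1 point for each of 10022 tested genes and colours for the classes of called interactions. The interaction of a gene is its vertical distance from the diagonal line. Refed level genes (1098) lie along the horizontal axis and used-medium level genes (839) along the vertical one.

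By the shape of the responses, 908 called genes changed in the same direction with both histories and more strongly in pre-starved cultures, and 754 changed in the same direction but less. A response was called in naive cultures alone for 457 genes and in pre-starved cultures alone for 434. Responses in opposite directions were called for 186 genes, with 109 that fell in naive and rose in pre-starved cultures and 77 that did the reverse. Without naive refed A the stronger responses of pre-starved cultures numbered 602, and without pre-starved refed B the responses called in these cultures alone numbered 278. The responses themselves were broad: 7632 genes (76.2%) were called in naive cultures, 38.1% up and 38% down, and 7711 (76.9%) in pre-starved ones, 39.9% up and 37.1% down.

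**Figure D2:**
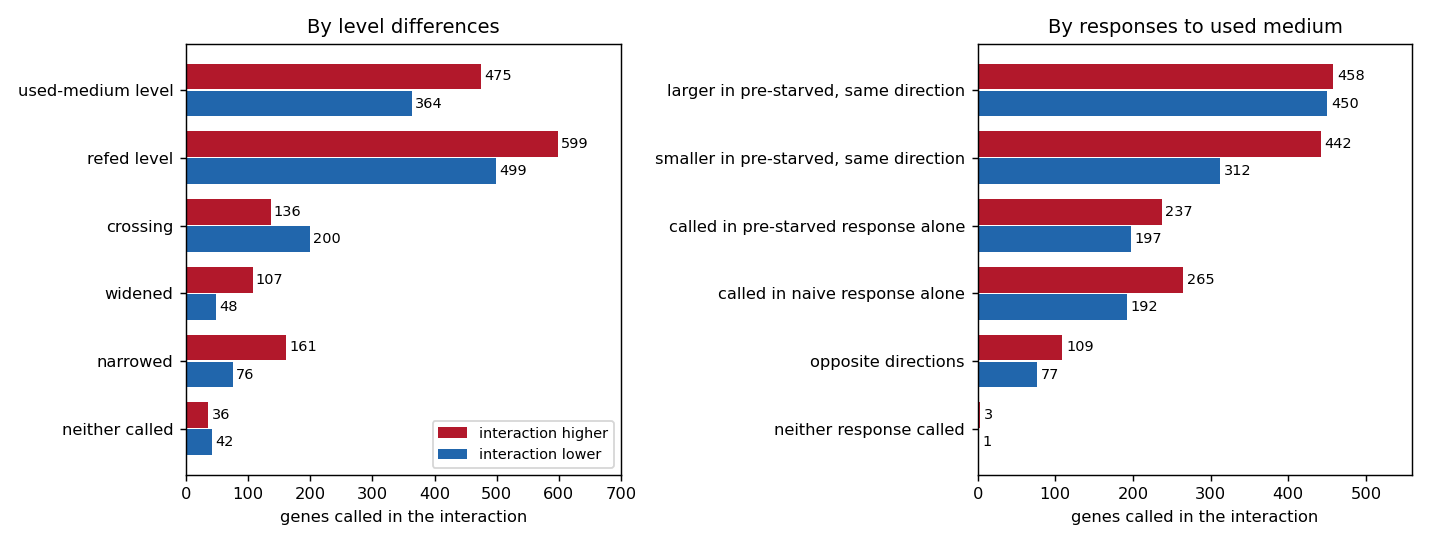
Number of genes called in the interaction (x axes, bars from 0), split by sign, according to which level differences were called (left) and which responses were called (right). Refed level genes are the most frequent class on the left with 599 higher and 499 lower, and responses in opposite directions were called for 109 and 77 genes on the right.

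Genes of nitrate assimilation fell further in pre-starved cultures, from a higher start to a lower end. All 5 members of the list for this pathway were lower in the interaction, against 12.3% of all tested genes, with a median interaction of -1.76, and 4 of the 5 crossed. niaD, the gene of nitrate reductase, stood at 1631 and 1759 CPM in the naive refed cultures and at 14.8 and 10.3 CPM in naive used medium. In pre-starved cultures its level was 2345 and 2502 CPM after refeeding and 3.07 and 3.0 CPM in used medium. The history groups did not overlap in either state, and they changed places between the states. The interaction of niaD was -2.57 ± 0.25 (edgeR adjusted p = 4.32e-05). Of this interaction, the used-medium level difference gave -2.05 and the refed level difference 0.52. Here and below, ± gives the standard error from the model of all 16 cultures in 8 groups, with 2 cultures per group. It does not measure the spread of the 2 cultures within a group.

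niiA, the gene of nitrite reductase, went from 8867 and 9430 CPM to 139 and 120 CPM in naive cultures, and from 13567 and 15388 CPM to 48.5 and 49.4 CPM in pre-starved ones. Its interaction was -2.06 ± 0.19 (edgeR adjusted p = 2.81e-05). The nitrate transporter gene crnA had an interaction of -1.76 ± 0.32 and AN0399, which has no symbol in the annotation used for names, one of -1.54 ± 0.17. Of both, the pre-starved cultures again held more after refeeding (refed level differences of 0.74 and 0.52) and less in used medium (-1.02 and -1.01). nirA, which encodes the activator of these genes, differed in another way: its interaction of -0.60 ± 0.17 came from the refed level difference (0.61), while the used-medium level difference was 0.01 with a 95% interval from -0.25 to 0.27. The call of nirA was the weakest of the list (edgeR adjusted p = 0.0204). It was lost with library totals (-0.37, adjusted p = 0.170), in the fit of 4 groups only (adjusted p = 0.0647), and without naive used-medium B, pre-starved used-medium B, naive refed B or pre-starved refed A, with an adjusted p of up to 0.092.

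Of 10 genes for nitrogen regulation and ammonium assimilation, 6 were lower in the interaction and none higher, against 12.3% lower and 15.1% higher over all tested genes, with a median of -0.68. Library totals left 4 lower and 1 higher. AN5134 showed the largest refed level difference among those named here: it stood at 1059 and 998 CPM in naive and at 4617 and 5470 CPM in pre-starved refed cultures, and at 173 and 219 CPM against 178 and 105 CPM in used medium. Only the refed groups were apart, and its interaction was -2.76 ± 0.29. AN4376 (-1.96 ± 0.17) crossed, from 1852 and 1873 against 4925 and 5272 CPM after refeeding to 156 and 142 against 113 and 95.9 CPM in used medium. AN7451 rose from 70.5 and 72.4 to 711 and 788 CPM in naive cultures, and from 128 and 135 to 165 and 385 CPM in pre-starved ones, with an interaction of -2.33 ± 0.40. glnA, for glutamine synthetase, had an interaction of -0.94 ± 0.27 that was called with all cultures (edgeR adjusted p = 0.0226). Without naive used-medium A, pre-starved used-medium B, naive refed A, naive refed B or pre-starved refed B that call was lost, with an adjusted p of 0.0611 to 0.0827. areA, for the general nitrogen regulator, was not called (-0.30 ± 0.25, edgeR adjusted p = 0.401).

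fahA, hmgA, hmgX and AN1899 lie next to each other in the reference gene order and were found as a stretch of neighbouring genes called lower, so their shared direction is what selected them. fahA and hmgA encode fumarylacetoacetate hydrolase and homogentisate dioxygenase, enzymes of the breakdown of phenylalanine and tyrosine, and hmgX is needed for the same route. hmgA rose from 6.88 and 8.79 CPM to 662 and 795 CPM in naive cultures and from 16 and 17.8 CPM to 222 and 285 CPM in pre-starved ones. Pre-starved cultures thus started above the naive ones and ended below them without overlap, and the interaction was -2.63 ± 0.23 (edgeR adjusted p = 2.31e-05). fahA went from 2.35 and 2.06 CPM to 414 and 557 CPM in naive cultures, and from 1.76 and 1.55 CPM to 108 and 166 CPM in pre-starved ones. Its interaction of -1.41 ± 0.31 lay in the used-medium level difference (-1.83), with a refed level difference of -0.41 that was not called. hmgX (-1.94 ± 0.28) was of the same class and AN1899 (-3.01 ± 0.27) crossed as hmgA did. With the 32 libraries kept apart in limma, the calls of fahA and hmgX were lost (adjusted p = 0.316 and 0.0715), at interactions of -1.49 and -2.0.

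Among 12 genes for the use of other nitrogen sources, 4 were lower and 2 higher, against 12.3% lower and 15.1% higher over all tested genes, so that the share of higher genes was near that of all genes. prnD and prnC encode the enzymes that break down proline. prnD rose from 1.10 and 1.30 to 37.4 and 38.9 CPM in naive and from 8.30 and 7.16 to 37.5 and 79.1 CPM in pre-starved cultures. It thus reached overlapping levels from different starting points, with an interaction of -2.07 ± 0.46 in the refed level class. prnC started alike (6.85 and 8.29 against 8.83 and 7.30 CPM) and ended at 974 and 1086 CPM in naive and at 538 and 657 CPM in pre-starved cultures, which is the used-medium level class (-0.88 ± 0.22). The call of prnC was lost without naive refed A or pre-starved refed A (adjusted p = 0.0513 to 0.0598), and the calls of prnD and prnC were lost with the 32 libraries in limma (0.186 and 0.129).

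Some genes of asexual development were far higher in pre-starved cultures already after refeeding. rodA encodes the hydrophobin of the spore coat. In naive cultures it stood at 0.294 and 0.308 CPM after refeeding and at 1.70 and 1.36 CPM in used medium. In pre-starved cultures it stood at 2021 and 1620 CPM after refeeding and at 87.2 and 222 CPM in used medium, above the naive cultures in both states. The refed level difference was 12.55 and the used-medium level difference 6.65, so the difference narrowed and the interaction was -5.90 ± 0.90 (edgeR adjusted p = 0.000661). With the 32 libraries in limma the interaction was -5.97 with an adjusted p of 0.267. brlA, for the activator that starts conidiophore development, rose from 3.84 and 4.24 to 19.2 and 11.8 CPM in naive cultures and fell from 127 and 74.5 to 35.0 and 45.4 CPM in pre-starved ones, with an interaction of -3.27 ± 0.39. ivoA, for the pigment of the conidiophore, followed the same order of levels (-3.48 ± 0.74). It stood at 1.10 and 0.853 CPM and then at 1.52 and 1.74 CPM in naive cultures. In pre-starved cultures it stood at 49.6 and 36.1 CPM and then at 3.46 and 9.35 CPM. ivoA was not in the conidiophore and spore list. Of the 5 tested members of that list, 2 were lower in the interaction, rodA and yA, and 3 were not called. Over all tested genes 12.3% were lower. The uncalled members were dewA (-0.51 ± 0.88), catA (-0.01 ± 0.40) and ivoB. The estimate of ivoB went the other way (1.60 ± 0.80), with level differences of 1.81 after refeeding and 3.41 in used medium.

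Of 12 regulators of conidiation, brlA was the 1 lower in the interaction and 2 were higher, flbD and vosA, while 9 were not called. These counts are near the shares over all tested genes, 12.3% lower and 15.1% higher. Among them, abaA and wetA, which act after brlA, had interactions of -0.13 ± 0.53 and -0.03 ± 0.35. flbD acts upstream of brlA. flbD stood at 132 and 113 CPM in naive and at 48.5 and 42.0 CPM in pre-starved refed cultures, and at 170 and 196 against 111 and 141 CPM in used medium, so that its deficit narrowed (0.89 ± 0.18, edgeR adjusted p = 0.00359). Of the 7 markers chosen for conidiophores and conidia, all had counts in every group, and their summed level was 22.4 to 24.3 CPM in naive refed and 1728 to 2183 CPM in pre-starved refed cultures. In used medium it was 40.0 to 51.9 CPM in naive and 152.5 to 300.7 CPM in pre-starved cultures. rodA made up most of the pre-starved sums. dewA, a further hydrophobin gene, stood at 0.269 and 0.0474 CPM in naive and at 0.0439 and 0.135 CPM in pre-starved refed cultures. The part of conidiophores in the other results was not tested, and in RNA from whole mycelium fewer cells of a kind cannot be told apart from less RNA per cell.

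Genes for siderophores, the compounds with which the fungus takes up and stores iron, were mostly higher in the interaction: 6 of 8 were called higher and 1 lower, against 15.1% and 12.3% of all tested genes, and the counts were the same with library totals and with DESeq2. Their median interaction was 1.24, with a median refed level difference of -1.62 and a median used-medium level difference of 0.05. sidI stood at 44.5 and 66.1 CPM in naive and at 7.33 and 6.15 CPM in pre-starved refed cultures. In used medium it stood at 0.395 and 0.334 CPM in naive and at 0.646 and 1.03 CPM in pre-starved cultures. Its order reversed between the states, and the interaction was 4.22 ± 0.36 (edgeR adjusted p = 2.07e-05). In Aspergillus fumigatus sidI serves the synthesis of the secreted, fusarinine type of siderophore. mirB, for a siderophore transporter, fell from 823 and 889 to 47.2 and 56.6 CPM in naive cultures and from 193 and 181 to 27.6 and 27.6 CPM in pre-starved ones, so that its deficit narrowed (1.29 ± 0.16). AN5823, of the same list, crossed with an interaction of 2.39 ± 0.21, and AN7800 was called by its refed level (1.70 ± 0.34).

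hapX, for the regulator of the response to iron shortage, was lower after the move in naive cultures alone. It stood at 55.1 and 56.4 CPM in naive refed cultures and at 22.5 and 27.6 CPM in naive used medium. In pre-starved cultures it stood at 38.8 and 39.2 CPM and then at 43.2 and 36.8 CPM, with a response of 0.04, and the interaction was 1.19 ± 0.17 (edgeR adjusted p = 0.000495). sreA, for the repressor of iron uptake, was not called (-0.17 ± 0.16) and its value changed sign with library totals (0.06). sidC, for the synthetase of the intracellular siderophore ferricrocin, was the member with a lower interaction (-1.25 ± 0.19): it rose from 105 and 117 to 296 and 363 CPM in naive cultures and stood at 140 and 170 and then at 188 and 199 CPM in pre-starved ones.

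Adjacent in the reference gene order, sidH, sidD, AN6237, mirD, sidJ and AN6240 were called higher together, and this shared direction is again what selected the stretch. sidD encodes the synthetase of the fusarinine siderophore, and sidH and sidJ serve the same siderophore in Aspergillus fumigatus. sidH stood at 112 and 139 CPM in naive and at 56.1 and 40.8 CPM in pre-starved refed cultures, and at 3.04 and 2.38 against 2.33 and 2.63 CPM in used medium, where the groups overlapped (1.24 ± 0.26). sidJ (0.99 ± 0.21), sidD (1.06 ± 0.32) and mirD (1.79 ± 0.57) were likewise called in the refed level difference and not in the used-medium level difference. AN6237 (2.09 ± 0.30) crossed and AN6240 (0.89 ± 0.21) was of the used-medium level class. The calls of sidD and mirD were the least stable. sidD lost its call without naive used-medium A, naive used-medium B, pre-starved used-medium A, naive refed B or pre-starved refed B (adjusted p of 0.0659 to 0.137). mirD lost its call without naive used-medium A, pre-starved used-medium B, naive refed A or pre-starved refed B (0.103 to 0.198), and also in the fit of 4 groups only (0.0895). With the 32 libraries in limma the calls of sidD, mirD, sidJ and sidH were lost (adjusted p of 0.163, 0.239, 0.0576 and 0.0861).

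All 6 heat shock and folding genes of the list were lower in the interaction, with a median of -0.92, against 12.3% of all tested genes called lower. Library totals left 4 of them lower and none higher, and DESeq2 called all 6. hsp60, for the mitochondrial chaperonin, stood at 1038 and 1249 CPM in naive and at 2030 and 2400 CPM in pre-starved refed cultures. In used medium it stood at 300 and 245 against 251 and 192 CPM, where the groups overlapped, and its interaction was -1.25 ± 0.30 (edgeR adjusted p = 0.00914). bipA, the chaperone of the endoplasmic reticulum, rose in both kinds of culture, from 411 and 388 to 1366 and 1331 CPM in naive and from 536 and 476 to 958 and 894 CPM in pre-starved ones (-0.88 ± 0.17). pdiA, for a protein disulfide isomerase, rose from 445 and 419 to 665 and 704 CPM in naive cultures and had a response of 0.07 in pre-starved ones (-0.60 ± 0.14), though with library totals its interaction was -0.36 with an adjusted p of 0.0717. AN0858 (-1.22 ± 0.22) differed in its used-medium level. hsp90 (-0.77 ± 0.23) and hsp70 (-0.95 ± 0.29) had edgeR adjusted p values of 0.029 and 0.0293. hsp90 lost its call without naive used-medium A, naive used-medium B, pre-starved used-medium A, naive refed A or pre-starved refed B (up to 0.116), in the fit of 4 groups only (0.0576) and with library totals (0.0664). hsp70 lost its call without naive used-medium A, pre-starved used-medium B, naive refed A or pre-starved refed B (up to 0.116) and in the fit of 4 groups only (0.056).

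**Figure D3:**
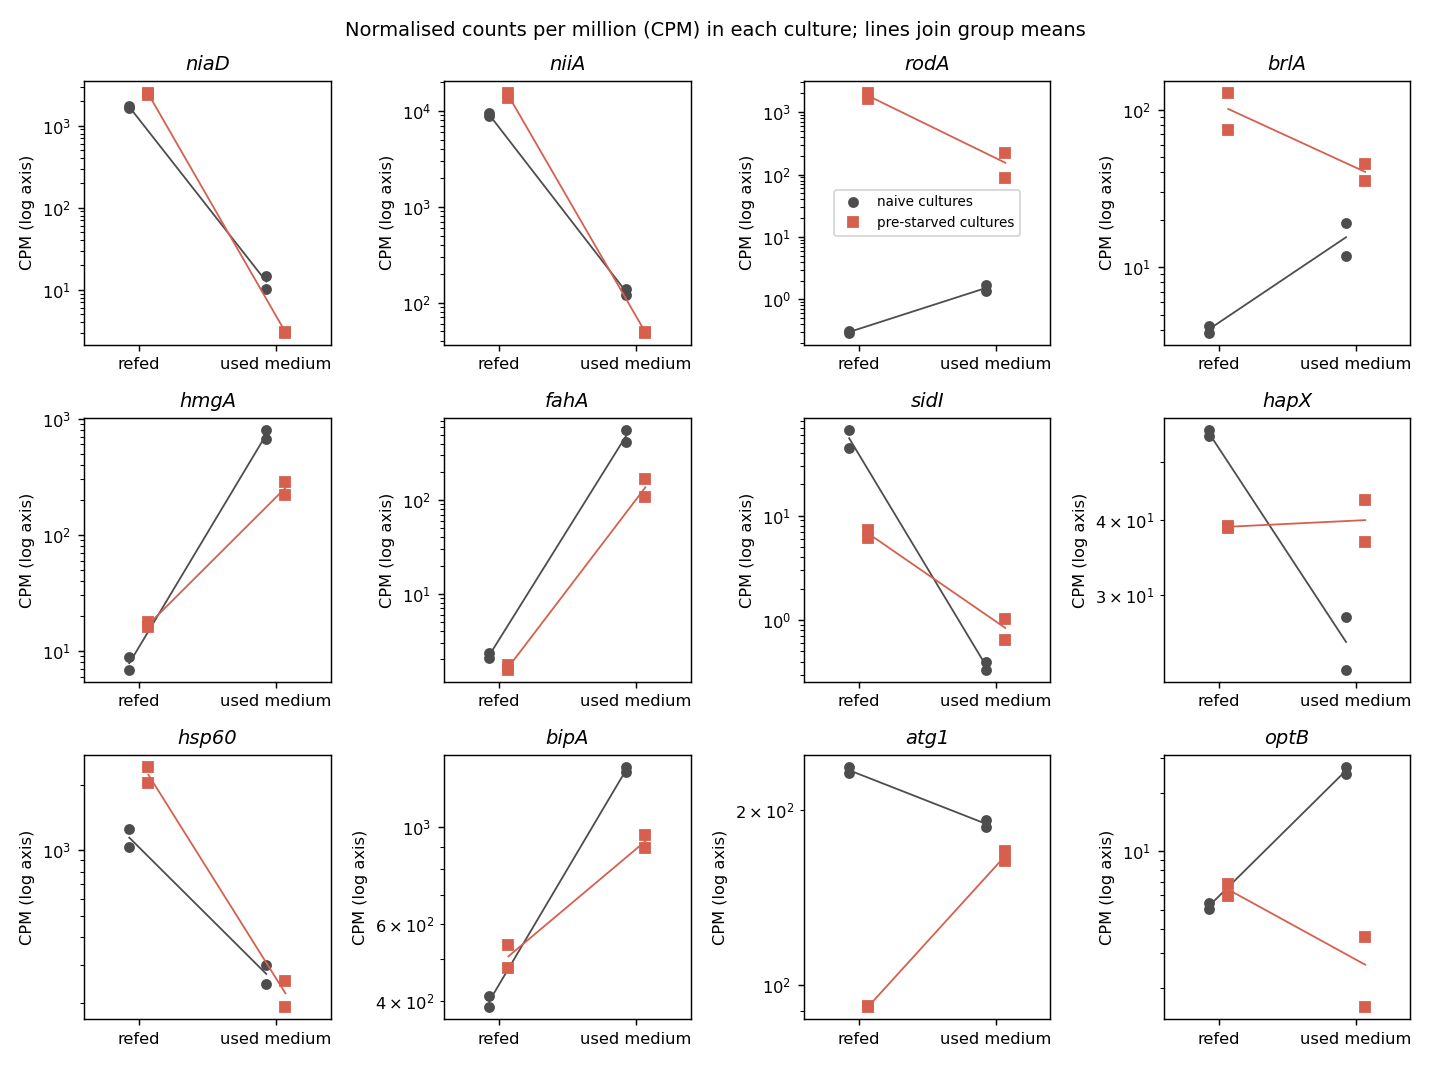
Level in CPM (y axes, logarithmic, each panel with its own range) of 12 genes in refed and used-medium cultures. Each point is 1 culture, circles are naive and squares pre-starved cultures, and lines join the means of 2 cultures. The lines of niaD, niiA, hmgA, sidI, hapX, hsp60, bipA and optB cross. Those of rodA and brlA stay apart in both states, and those of atg1 come closer in used medium without overlap of the points.

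Single named genes of other lists were of the refed level or the used-medium level class, or were not called. atg1, for the kinase that starts autophagy, was of the refed level class: it stood at 232 and 237 CPM in naive and at 91.9 and 91.6 CPM in pre-starved refed cultures, and at 187 and 192 against 164 and 170 CPM in used medium (1.17 ± 0.14, edgeR adjusted p = 0.000129). It fell in naive and rose in pre-starved cultures. acuM, for a regulator of gluconeogenesis, reached 154 and 143 CPM in naive used medium from 91.1 and 90.5 CPM, a level that the pre-starved cultures already held after refeeding (156 and 165 CPM) and still held in used medium (158 and 135 CPM), with an interaction of -0.84 ± 0.15. pyroA, of vitamin B6 synthesis, fell to levels 0.04 log2 apart from different starts, from 377 and 312 to 34.7 and 35.2 CPM in naive cultures and from 750 and 768 to 35.9 and 35.9 CPM in pre-starved ones (-1.10 ± 0.16). xlnD, for a xylosidase, was of the used-medium level class, with 27.0 and 28.6 against 23.4 and 26.5 CPM after refeeding and 24.3 and 24.0 against 11.3 and 10.8 CPM in used medium (-0.97 ± 0.18). laeA, for the global regulator of secondary metabolism, was higher in pre-starved cultures by a like amount in both states (0.63 and 0.79) and was not called (0.16 ± 0.14). creA, for the carbon catabolite repressor, was not called either (-0.36 ± 0.45).

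The largest interactions overall belonged mostly to genes that carry no symbol in the annotation used for names, and these are given by identifier. AN3229 stood at 120 and 73.9 CPM in naive refed cultures but at 0.944 and 1.08 CPM in pre-starved refed ones. In used medium it stood at 6.79 and 6.96 against 5.12 and 5.39 CPM. The difference between the histories was thus far larger after refeeding than in used medium, with an interaction of 6.19 ± 0.39 (edgeR adjusted p = 4.81e-06). Its neighbour in number, AN3230, behaved alike, with 65.5 and 37.5 against 3.03 and 3.19 CPM after refeeding and 12.5 and 14.8 against 13.3 and 17.6 CPM in used medium (4.23 ± 0.36). AN3246 (6.71 ± 0.79), AN11211 (5.13 ± 0.38) and AN8507 (4.70 ± 0.59) were also far lower in pre-starved than in naive refed cultures, with refed level differences of -7.97, -4.92 and -6.04. AN3388 was different: it stayed between 0.220 and 1.68 CPM in the 4 naive refed and used-medium cultures and at 1.30 and 0.427 CPM in pre-starved refed ones, and reached 104 and 142 CPM in pre-starved used medium (4.54 ± 0.80). With the 32 libraries in limma its interaction was 4.21 with an adjusted p of 0.178.

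On the lower side, AN5558 stood at 44.3 and 48.4 CPM in naive and at 1222 and 1047 CPM in pre-starved refed cultures, and at 524 and 345 against 506 and 342 CPM in used medium. It rose in naive and fell in pre-starved cultures to overlapping levels (-4.65 ± 0.33, edgeR adjusted p = 6.04e-06). AN1677 crossed fully: it went from 379 and 426 to 1663 and 2150 CPM in naive cultures and from 1940 and 2140 to 392 and 508 CPM in pre-starved ones (-4.42 ± 0.27). AN10326 rose from 0.612 and 0.758 to 912 and 681 CPM in naive cultures and from 11.6 and 6.58 to 444 and 347 CPM in pre-starved ones (-4.74 ± 0.51). AN6869 had 16.8 and 17.6 CPM in pre-starved refed cultures and at most 1.68 CPM in any other culture of the 4 refed and used-medium groups (-6.24 ± 0.65). AN1837 reached 67.5 and 24.0 CPM in pre-starved refed cultures and at most 2.15 CPM in the other refed and used-medium cultures, with 10.5 CPM in pre-starved salt B (-7.14 ± 1.36). Genes with a culture at 0 counts, AN7909, AN0216 and AN3575, were also among the largest, and no fold is given for them.

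Genes whose interaction lay in the level reached in used medium include the following. optB stood at 5.04 and 5.45 against 5.93 and 6.80 CPM after refeeding, then at 27.0 and 24.9 CPM in naive and at 3.65 and 1.59 CPM in pre-starved used medium. It rose with the one history and fell with the other (-3.58 ± 0.43, edgeR adjusted p = 0.000154), from starting levels 0.28 log2 apart, with a 95% interval from -0.37 to 0.93. AN3557 had an interaction of the other sign, with 14.5 and 10.5 against 18.7 and 13.6 CPM after refeeding and 2.17 and 2.22 against 16.3 and 19.5 CPM in used medium (2.66 ± 0.34). It fell in naive cultures, while the levels of pre-starved cultures overlapped between the 2 states. AN5005 fell from 29.2 and 23.4 to 2.41 and 2.84 CPM in naive cultures and stood at 26.7 and 23.1 and then at 11.9 and 26.7 CPM in pre-starved ones (2.96 ± 0.43). AN1952 reached 1147 and 1124 CPM in naive and 257 and 198 CPM in pre-starved used medium (-3.42 ± 0.77). These used-medium levels make up only a part of its interaction, and the remainder lay in the refed level difference. AN8083 widened a small difference: it rose from 1.86 and 1.82 to 235 and 243 CPM in naive cultures, and from 1.12 and 0.898 to 8.50 and 11.3 CPM in pre-starved ones (-3.73 ± 0.26). AN4135 widened as well, from 2409 and 2877 against 1151 and 1463 CPM to 135 and 98.6 against 12.5 and 14.1 CPM (-2.12 ± 0.28).

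The lists of genes for secondary metabolite clusters held few reference symbols, so their counts are given for the lists as they were chosen by identifier. In the sterigmatocystin list, 4 of 17 tested members were higher and 2 lower, against 15.1% higher and 12.3% lower over all tested genes, so that the share of lower genes was near that of all genes. AN7819 stood at 12.9 and 13.7 against 4.77 and 5.05 CPM after refeeding and at 21.5 and 19.5 against 38 and 42 CPM in used medium, and so crossed (2.40 ± 0.25, edgeR adjusted p = 6.85e-05). AN7814 crossed the other way (-1.81 ± 0.28), and AN7825 was lower by its refed level (-2.17 ± 0.37). AN7820 stood at 0.465 and 0.261 against 0.285 and 0.292 CPM after refeeding and at 11.7 and 12.0 against 38.9 and 22.5 CPM in used medium (1.69 ± 0.58, edgeR adjusted p = 0.0464). Its call was lost without naive used-medium A, naive used-medium B, pre-starved used-medium A, naive refed A, pre-starved refed A or pre-starved refed B (adjusted p of 0.0814 to 0.253), in the fit of 4 groups only (0.0663) and with the 32 libraries (0.508). With the 32 libraries the call of AN7825 was lost too (0.0515).

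The same shares over all tested genes, 12.3% lower and 15.1% higher, stand beside the counts of the other clusters. In the penicillin list, 2 of 3 members were lower, with median level differences of 3.31 after refeeding and 1.79 in used medium. AN2623 rose from 3.08 and 2.68 to 279 and 212 CPM in naive cultures and from 29.3 and 16.5 to 481 and 501 CPM in pre-starved ones, so that pre-starved cultures were above in both states and the difference narrowed (-1.99 ± 0.38). In the orsellinic acid list, 3 of 5 were lower. AN7912, one of them, stood at 0.318 and 0.640 against 6.70 and 22.2 CPM after refeeding, and at 7.70 and 23.5 against 16.4 and 23.2 CPM in used medium (-4.56 ± 1.08, adjusted p of 0.0575 with the 32 libraries). In the austinol lists, 4 of 9 were lower, each of the refed level class, and library totals left 3. One of the 4, AN9246 (-5.18 ± 1.78, edgeR adjusted p = 0.0485), had a refed level difference of 2.76. Its used-medium level difference of -2.42 was not called but was nearly as large. In the aspyridone list, 1 of 6 was lower, AN8412, which reached 5.41 and 4.89 CPM in naive and 1.76 and 0.627 CPM in pre-starved used medium (-2.71 ± 0.52), and 1 was higher. Of the benzaldehyde derivative list, AN7895 alone of 11 was called (4.01 ± 1.28). It stood at 258 CPM in culture A and at 21.0 CPM in culture B of pre-starved used medium, and without culture A its interaction was 1.28 (edgeR adjusted p = 0.323). Its call was also lost without any 1 of 6 other cultures, all but pre-starved used-medium B.

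Of 9 glycolysis genes, 5 were lower and none higher, against 12.3% lower and 15.1% higher over all tested genes, 4 of the 5 by their refed level, with a median interaction of -0.99 and a median refed level difference of 0.82. Of 6 genes for alcohol use and carbon repression, 1 was called, AN0554. It rose from 383 and 312 to 10782 and 6523 CPM in naive cultures and from 258 and 253 to 18411 and 14704 CPM in pre-starved ones (1.38 ± 0.46, edgeR adjusted p = 0.0422), and its call was lost without any 1 of 7 of the 8 cultures, all but naive used-medium A (adjusted p of 0.05 to 0.142). AN8979, of the same list, stood at 24092 and 9569 CPM in naive and at 38814 and 30274 CPM in pre-starved used medium and was not called (1.90 ± 0.94, edgeR adjusted p = 0.157). It was called in the fit of 4 groups only (0.0453) and with the 32 libraries (0.0331). Of 7 genes for starch degradation, AN2018 was lower (-1.64 ± 0.16) and 1 was higher. All lists together held 242 tested genes, of which 86 (35.5%) were called, 29 higher and 57 lower, against 27.4% called, 15.1% higher and 12.3% lower, over all tested genes.

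**Figure D4:**
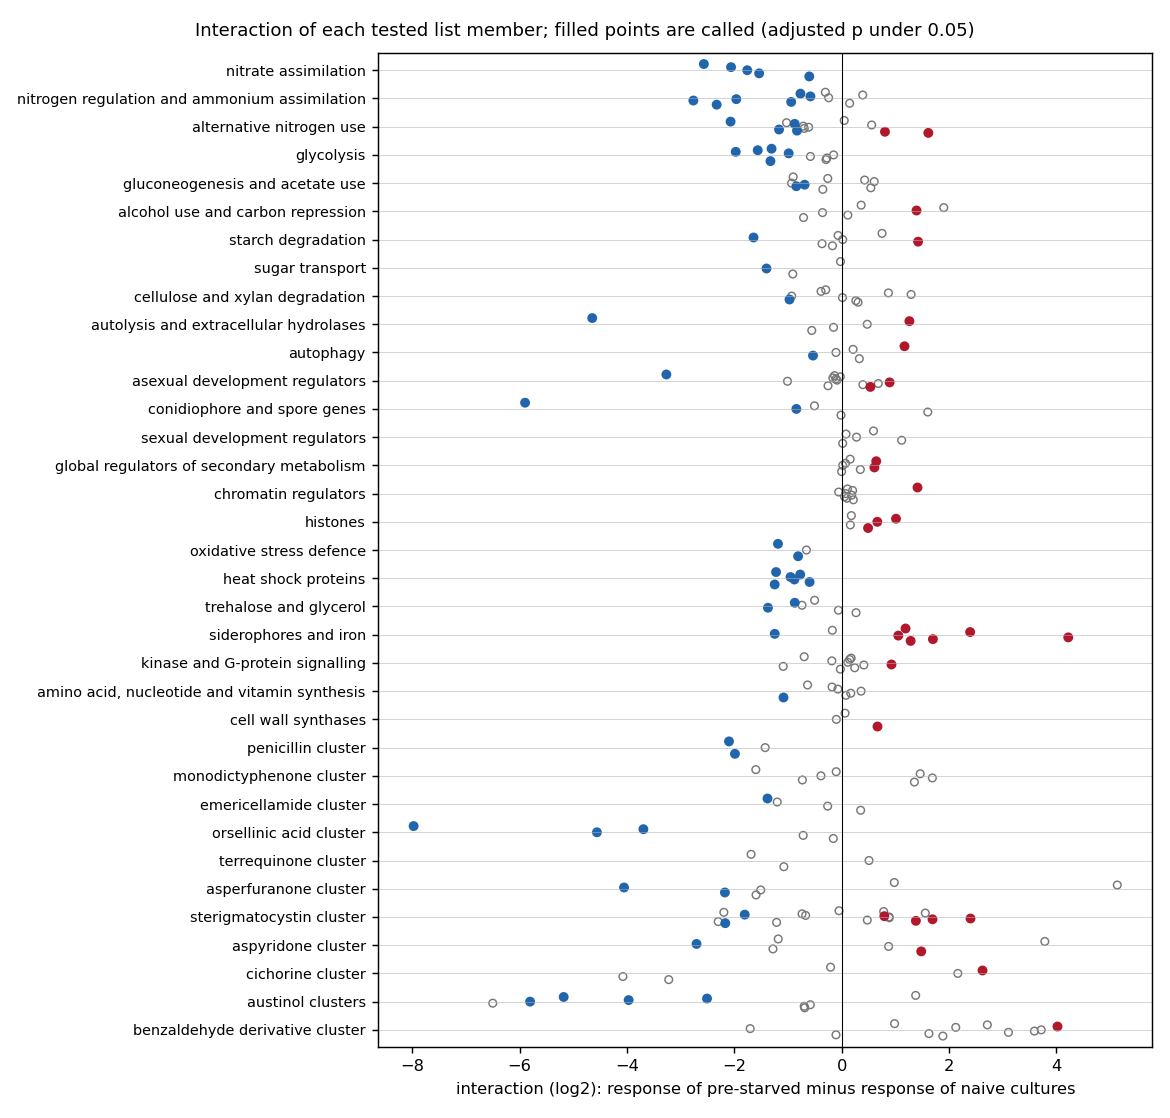
Interaction (x axis, log2; response of pre-starved minus response of naive cultures) of every tested member of 35 gene lists (rows). Each point is 1 gene, filled red or blue where it was called higher or lower and open where it was not called. All 5 nitrate assimilation and all 6 heat shock genes lie on the lower side, and 6 of 8 siderophore and iron genes are called on the higher side.

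Stretches of at least 4 neighbouring genes called in the same direction numbered 18, 7 higher and 11 lower, with 4 to 6 genes each and 79 in all. This count was not stable: it was 47 with library totals, 8 in the fit of 4 groups only and 10 with the 32 libraries in limma. It was 5 to 10 without any 1 of 6 cultures, and 15 without pre-starved used-medium A or pre-starved refed A. Besides those of sidH and fahA, 1 held acuM with AN6294, AN6295 and AN6296 (lower), and 1 held eng2 with AN2386, AN2387 and AN2388 (higher). eng2 fell from 1400 and 1359 to 579 and 578 CPM in naive cultures and from 808 and 863 to 529 and 557 CPM in pre-starved ones (0.63 ± 0.14).

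The salt solution served as a second way of taking carbon and nitrogen away, and the same difference of responses with 1 h in salt was called for 2913 genes (29.1%), 1709 higher (17.1%) and 1204 lower (12.0%). Both interactions share the refed cultures, so they are not independent. Where they differ was tested directly, as the used-medium level difference minus the salt level difference, in which the refed cultures cancel. Only 37 genes (0.369%) were called by edgeR, 27 higher (0.269%) and 10 lower (0.0998%), and 1029 had an unadjusted p under 0.05. Leaving out single cultures gave 10 to 119 calls, DESeq2 gave 242 and limma with 32 libraries 453, so this count was not stable and does not show that the other genes behaved alike.

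The 4 genes described next were among the 37 and were chosen after their values were seen. AN7181 stood at 17.6 and 17.7 against 147 and 137 CPM after refeeding. In used medium naive cultures (2048 and 1800 CPM) reached the pre-starved level (2341 and 1899 CPM), whereas in salt they stood at 74.8 and 80.2 against 395 and 429 CPM, a difference of level differences of -2.27 ± 0.17 (edgeR adjusted p = 0.00018). AN8915 stood at 24.9 and 18.8 against 25.3 and 25.1 CPM in used medium and at 40.1 and 39.0 against 203 and 272 CPM in salt (-2.38 ± 0.26). AN8083, described above for used medium, stood at 383 and 397 against 59.0 and 57.2 CPM in salt, and its history difference was larger in used medium (-1.85 ± 0.21). mirB stood at 75.0 and 66.6 against 18 and 18.3 CPM in salt, so that its deficit in pre-starved cultures was larger there (1.05 ± 0.16). The call of mirB was lost without naive used-medium A or pre-starved used-medium A.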

How the data were processed

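RNA of mycelium was sequenced as 50 nt single ends after TruSeq RNA v2 preparation, a kit that keeps no strand, so that overlapping genes cannot be told apart. The authors mapped reads to the FGSC A4 genome, per the labels' protocols, and BWA, HTSeq, edgeR, limma and Trimmomatic 0.36 are listed, without their steps, per the submitters' processing notes. The deposited values used here were raw counts per gene (10681 genes, 32 libraries). The authors also deposited log2 FPKM per group and log2 exon length, which were not used.

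Libraries of the 4 groups held 19634577 to 31700586 counts, and summed cultures 39526910 to 63033645. The chi-square of counts between libraries, divided by its degrees of freedom, was 2.12 to 2.29 for technical pairs and 53.3 to 272.1 for cultures. With R 4.3.3 and edgeR 4.0.16, filterByExpr (minimum count 10, minimum total 15) kept 10022 genes and left out 0.00149% of counts. All 16 cultures of 8 groups were fitted in 1 quasi-likelihood model with TMM scaling (factors of 0.707 to 1.131 in the 4 groups), a mean per group and 8 residual degrees of freedom. Tests were two-sided, with Benjamini-Hochberg adjustment over all tested genes and a threshold of 0.05. Standard errors (±) and the intervals of level differences came from the model of all 8 groups, not from the cultures of a single group. Alternatives used DESeq2 1.42.0 and limma 3.58.1. The fit was also run on counts simulated from its own means and spread, which cannot show its error rate on these data.

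The comparison, gene lists and tests were chosen with earlier results of these data known. Named genes were the 10 largest per sign (at least 10 CPM in 1 group, both culture letters on the same side), 3 per class and sign, up to 4 per list, genes in neighbouring stretches and 9 fixed genes. crnA, glnA, prnC, hapX, mirB, hsp70, bipA, AN4376, AN7800 and AN7814, in lists of which other members were named by rule, were added after their values were seen. The lists held 265 genes, after 33 whose symbol in the reference differed were dropped, and that for asperthecin lost all members. Symbols come from the annotation of assembly ASM1142v1, which held 9967 of the identifiers and a symbol for 778. It is another release than that of the counts, so it served for names and gene order alone and no positions are given. No sequence is shown.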

Additional observations from a re-analysis of the deposited data

Results flagged for a closer look

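Responses to used medium that differ between naive and pre-starved cultures by a test of the difference itself were called for 2743 genes, which is the comparison described above. Responses called in opposite directions with both histories, and called in the interaction, were found for 186 genes, among them brlA, atg1, optB, AN1677 and AN5558. The history differences in used medium and in salt differed by their own test for 37 genes with edgeR. Groups of 2 cultures were too small to look for single cultures that stand apart.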

How the results depend on the processing

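Of 82 called genes that were followed through 14 other settings, 58 were called in the same direction in each of them. Of 1218 recomputed values, 78 lost a call, 2 gained one and 3 changed sign, all 3 of genes not called at the start: sreA with library totals (0.06), areA without pre-starved refed A (0.03, in a range over single cultures left out of -0.58 to 0.03) and creA without pre-starved used-medium B (0.06, in a range of -0.96 to 0.06). Limma with 32 libraries ended 17 of the lost calls, and library totals 3. The cause was not tested.

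Library totals gave 2517 higher interactions, 120 genes with neither level difference called, 13 with neither response called and 47 neighbouring stretches. DESeq2 gave 21 genes with neither response called and 242 genes for used medium against salt, and limma with 32 libraries gave 453 of the latter and 10 stretches. The fit of 4 groups only gave 2104 interactions and 8 stretches. A margin of 0.5 log2 left 369 used-medium level and 544 refed level genes in the stricter classes. Without each culture in turn, used-medium level genes numbered 531 to 822 (477 to 669 in the stricter class), crossing genes 218 to 284, widened 56 to 228, narrowed 130 to 207, larger responses in pre-starved cultures 602 to 882, responses called in pre-starved cultures alone 278 to 412, neither response called 1 to 7, neighbouring stretches 5 to 15, and genes for used medium against salt 10 to 119. All other counts stayed within 1.5 times. Keeping the dropped list members, an alternative chosen after seeing the data, gave 99 called genes.

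Over the 4 groups, the correlations of the deviations of cultures with the same letter, A or B, ran from -0.21 to 0.29. The correlation was 0.29 between the 2 used-medium groups and 0.15 between the 2 refed groups. Between a refed and a used-medium group it was -0.12 to -0.21. Whether cultures with the same letter were handled together was not tested. With the letter as a replicate block, 2694 interactions were called, 1477 higher and 1217 lower, and 1 followed gene, AN7895, lost its call (3.88, adjusted p = 0.0513).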

Other observations

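Families that share a stem of their symbols were looked up after values had been seen, so their counts carry no test of the family. They stand beside 15.1% higher and 12.3% lower over all tested genes. The families were septins, ergosterol synthesis, proteasome core subunits and peroxins. The peroxins did not share a direction: of 12 genes, 4 were higher and 2 lower, with a median interaction of 0.13. All 5 septin genes, which build rings and filaments at sites of growth and division, were higher in the interaction (median 0.63). aspE stood at 267 and 243 against 237 and 275 CPM after refeeding and at 36.6 and 31.2 against 92.2 and 82.8 CPM in used medium, so that it fell less in pre-starved cultures (1.36 ± 0.22). aspD did likewise, with 65.6 and 64.1 against 105 and 100 CPM in used medium (0.79 ± 0.13), and each of the 5 was of the used-medium level class. The call of aspC held in 3 of the 8 fits without 1 culture and that of aspA in 6.

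Of 17 genes with symbols of ergosterol synthesis, the route to the sterol of fungal membranes, 10 were higher and 1 lower. erg6 fell from 208 and 222 to 20.9 and 17.2 CPM in naive cultures and from 207 and 241 to 44.7 and 42.4 CPM in pre-starved ones (1.13 ± 0.16). erg13 fell from 372 and 362 to 12.4 and 13.3 CPM and from 135 and 147 to 23.4 and 24.5 CPM (2.28 ± 0.22), and erg4A was lower (-1.65 ± 0.14).

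Subunits of the proteasome core, the protease that degrades tagged proteins, differed in the level before the move. Of 11 such genes, 8 were higher in the interaction and none lower, and all 8 were of the refed level class, with median differences over the 11 of -0.54 after refeeding and -0.03 in used medium. pre8 stood at 172 and 168 against 106 and 97.7 CPM after refeeding and at 172 and 152 against 174 and 176 CPM in used medium (0.85 ± 0.13). The call of pre4 was lost in all 8 fits without 1 culture and that of pre3 in 4.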
